A study of Mus musculus with 13 samples.

Results

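The genes described here are 10 growth arrest and stress response genes of the mouse: the Gadd45 family (Gadd45a, Gadd45b, Gadd45g), the polo-like kinases Plk2 and Plk3, Phlda3, the sestrins Sesn1 and Sesn2, Btg2 and Trp53inp1. They were taken by symbol from the platform annotation of the arrays, where 19 of 45037 probe sets carry one of these names, and make up 10 of the 18193 named genes. Each gene was represented by 1 probe set, chosen by the highest mean signal over the 13 arrays. That mean ran from 6.95 (Gadd45a) to 10.89 (Plk2) on the log2 scale and is given as a description. The next brightest probe set lay close below the chosen one for Btg2 (9.12 against 9.40) and Gadd45b (9.91 against 10.33), and far below it for Plk2 (4.73 against 10.89). Because the 10 genes were listed with earlier results of these arrays known, their p-values describe these arrays and are no independent evidence.

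The RNA came from cultured prostate progenitor/stem cells of mice 10 wk old, whose genotype is labelled wild-type B1/6; 127/SVEV, at passage 22. All 4 groups share this source. Vehicle cultures received ethanol (0.1%) and treated cultures 100 nM 1,25(OH)2D3, the hormonal form of vitamin D, written 1,25D. RNA was taken after 6 h (3 vehicle and 3 treated arrays) or after 48 h with daily renewal of the medium (3 vehicle and 4 treated arrays). Nothing in the labels ties a replicate to a culture of its own, and p-values therefore measure only the spread between these arrays, which may be technical.

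Many of these genes are known targets of the tumour suppressor p53 and are switched on by DNA damage and other stress. Gadd45 proteins bind the replication clamp Pcna and the mitotic kinase Cdk1 and activate the stress kinase Map3k4. Plk2 and Plk3 act in the cell cycle and in stress signalling, Phlda3 holds back the kinase Akt, sestrins restrain mTORC1, the growth-promoting kinase complex, Btg2 recruits the deadenylase that shortens mRNA tails, and Trp53inp1 acts with p53 and in autophagy. The hormone 1,25D is known to slow the growth of many epithelial cells through the vitamin D receptor.

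The promoters of the 3 genes that were higher with 1,25D at 48 h are shown, because these genes were called together at that time. They are the 250 bases before the transcription start from RefSeq on GRCm38.p6, written 5′ to 3′ in the direction of the gene. Capitals mark a motif. In Plk2 (chr13:110394794-110395043, plus strand) it is the cAMP response element TGACGTCA, 62 bases before the start. In Gadd45a (chr6:67037408-67037657, minus strand) it is a p53 decamer half-site, 40 bases before the start, and in Phlda3 (chr1:135765835-135766084, plus strand) none of the motifs searched was found.
Plk2: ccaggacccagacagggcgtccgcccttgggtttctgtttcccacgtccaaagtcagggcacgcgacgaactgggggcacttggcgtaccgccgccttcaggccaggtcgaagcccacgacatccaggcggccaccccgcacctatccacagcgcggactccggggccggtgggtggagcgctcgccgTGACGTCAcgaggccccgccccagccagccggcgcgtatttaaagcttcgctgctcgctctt
Gadd45a: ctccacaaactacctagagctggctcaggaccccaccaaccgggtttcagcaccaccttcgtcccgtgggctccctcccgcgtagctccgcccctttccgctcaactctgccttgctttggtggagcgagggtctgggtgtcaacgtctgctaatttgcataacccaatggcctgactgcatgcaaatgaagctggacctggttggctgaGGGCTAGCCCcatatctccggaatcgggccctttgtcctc
Phlda3: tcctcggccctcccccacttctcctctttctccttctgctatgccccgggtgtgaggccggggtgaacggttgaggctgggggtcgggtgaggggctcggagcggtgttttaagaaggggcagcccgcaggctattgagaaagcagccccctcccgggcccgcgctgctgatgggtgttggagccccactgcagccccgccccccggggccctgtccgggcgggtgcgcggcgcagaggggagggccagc
The GC content of these windows was 68.4% in Plk2, 59.2% in Gadd45a and 71.2% in Phlda3. Windows were given for 9 of the 10 genes, 10 windows in all. The response element TGACGTCA, its own reverse complement, was found in Plk2 and Btg2 and in 1.55% of all 32851 windows of this length. The p53 half-site, searched on both strands, was found in Gadd45a and in 1 of the Sesn1 windows, against 7.13% of all windows. The TATA box, searched as TATAAA on the gene's strand, was found in Gadd45b and Gadd45g, against 7.59%. The direct repeat bound by the vitamin D receptor, with a spacer of 3 bases, was in none of the 10 windows and in 0.0122% of all windows. These matches are descriptions of letters and no evidence of binding.

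Signals on the 13 arrays ran from 3.05 to 14.45 on the log2 scale, with array medians of 5.57 to 5.67. The arrays vehicle 6 h replicate 1 and 1,25D 48 h replicate 4 stood apart, with interquartile ranges of 3.03 and 2.95 against 3.27 to 3.46 on the other 11. Cyp24a1, the vitamin D breakdown enzyme and a standard marker of hormone action, was higher by 8.50 (SE 0.20) at 6 h and 7.83 (SE 0.18) at 48 h on the log2 scale. All 8 measured basal epithelial markers had signals above the median of all probe sets, as had 6 of 8 luminal ones, 4 of 12 stromal, 4 of 9 immune, 1 of 8 endothelial and 0 of 4 neuroendocrine ones. Krt5, Krt14, Krt8 and Krt18 were among the brightest, at the 99.2 percentile of mean signal or above, while Pbsn, a secretory product of luminal cells, lay at the 5.91 percentile. Part of the luminal list moved with treatment at 6 h, when its mean signal was 8.73 to 8.81 on vehicle arrays and 9.36 to 9.38 on treated arrays. Called higher were 4 of 8 members, Krt19, Acpp, Tmprss2 and Cldn4, against 0.687% of all named genes. Krt8 (-0.14), Krt18 (0.00), Pbsn (-0.01) and Hoxb13 (-0.26) were not called. At 48 h the mean of the luminal list was 9.63 to 9.68 with vehicle and 9.66 to 9.79 with 1,25D. Of the 8, 2 rose and 2 fell, against 1.43% and 0.951% of all named genes. Krt19 (0.58) and Acpp (0.70) rose, and Krt8 (-0.43) and Krt18 (-0.34) fell. Of the basal markers Krt17 rose at 48 h (0.78), and of the immune ones Cd68 (1.23). Ptprc, a marker of white blood cells, lay at the 15.9 percentile. No stromal, endothelial or neuroendocrine marker was called in any comparison. The stromal marker Vim, at the 96.3 percentile, came close with 1,25D at 48 h (-0.55, SE 0.13, adjusted p = 0.0565 in limma). The part of such shifts in the results below was not tested. In RNA from whole cultures, fewer cells of a type and less RNA per cell cannot be told apart.

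Among the 10 genes, 1,25D lowered Plk2 at 6 h and raised Gadd45a, Plk2 and Phlda3 at 48 h. The calls at 48 h were close to the threshold: when each of the 13 arrays was left out in turn, Gadd45a lost its call 5 times and Plk2 and Phlda3 9 times each. The count of 10 held 0 higher and 1 lower at 6 h, against backgrounds of 0.687% and 0.165% of all named genes, and 3 higher and 0 lower at 48 h, against 1.43% and 0.951%. Genes were called at an adjusted p under 0.05 in limma, with Benjamini-Hochberg adjustment over all probe sets, and "rose" and "fell" are used only for such calls. Without adjustment, 4 of the 10 had p under 0.05 at 6 h and 3 at 48 h, against 7.01% and 10.3% of all named genes. The median log2 difference of the 10 was -0.16 at 6 h and -0.09 at 48 h, against -0.02 and 0.00 over all named genes, so the genes did not move one way: 4 were above vehicle and 6 below it at either time.

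**Figure D1:**
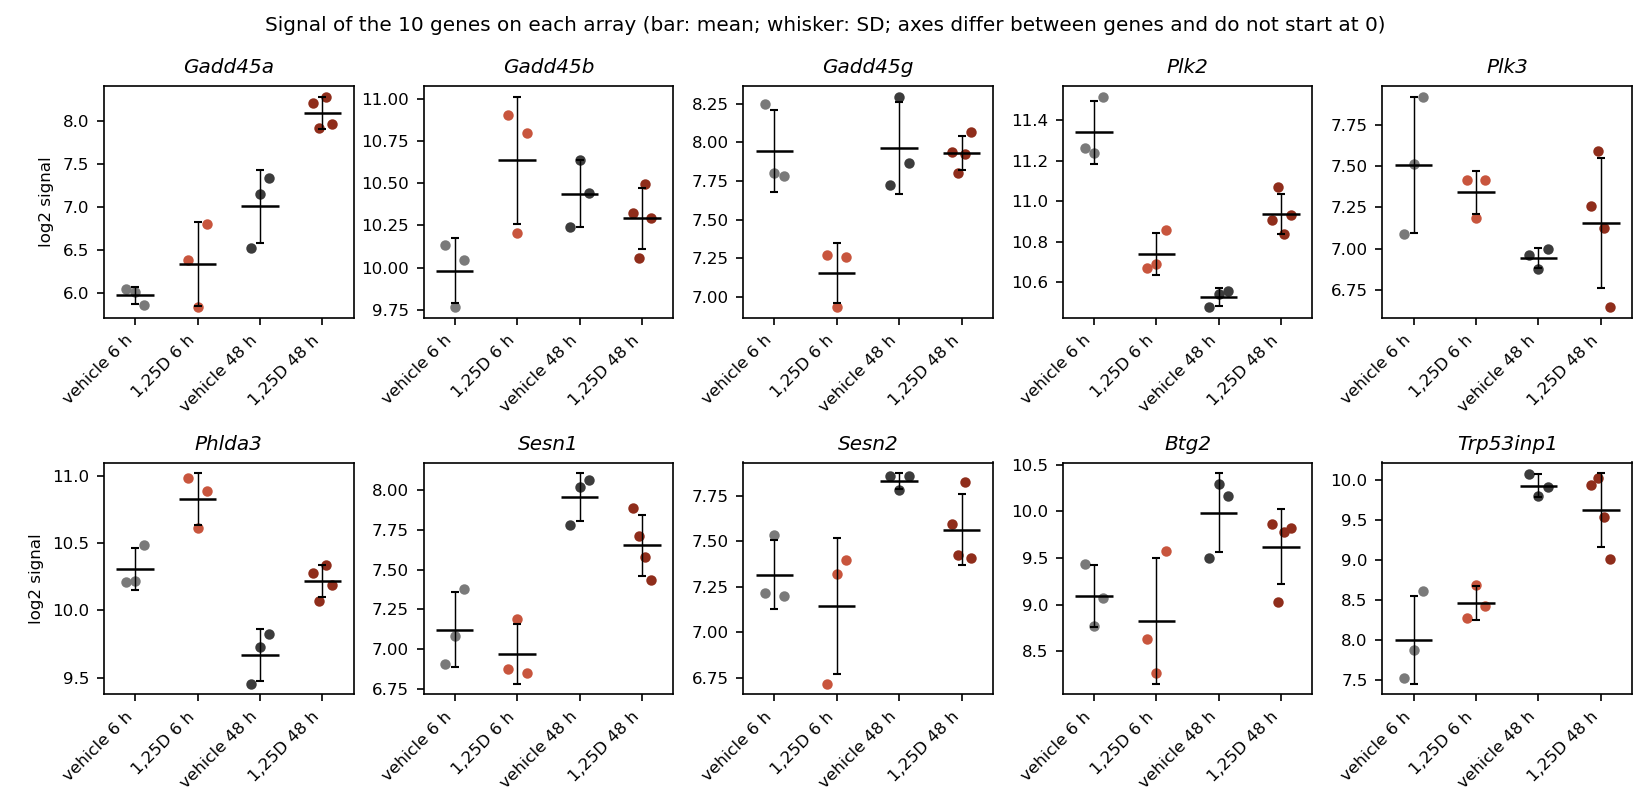
Log2 signal (vertical axis, own scale for each gene) of the 10 genes on each of the 13 arrays, by group (horizontal axis). Points are arrays, bars are group means and whiskers are SDs; the treated arrays of Plk2 lie below vehicle at 6 h (10.67 to 10.86 against 11.24 to 11.52) and above it at 48 h (10.84 to 11.07 against 10.48 to 10.56).

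The Gadd45 genes encode small acidic stress proteins of one family, and Gadd45a was the member called with 1,25D by its chosen probe set. Gadd45a, the member best known as a p53 target, had log2 signals of 6.04, 6.01 and 5.86 on the vehicle arrays at 6 h and 6.38, 5.83 and 6.80 on the treated arrays. These groups overlapped, since the second treated array was the lowest of the 6. The difference at 6 h was 0.37 (SE 0.24, 95% interval -0.16 to 0.89, adjusted p = 0.971 in limma). At 48 h Gadd45a had 6.52, 7.15 and 7.34 with vehicle and 8.22, 7.92, 8.29 and 7.96 with 1,25D. All treated arrays were above all vehicle arrays, and the vehicle values spread more widely (SD 0.426, n = 3) than the treated ones (SD 0.183, n = 4). Gadd45a rose 2.13-fold at 48 h, a log2 difference of 1.09 (SE 0.23, 95% interval 0.60 to 1.58, adjusted p = 0.0296 in limma).

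Gadd45b, a member known to be induced by TGF-beta and NF-kB, had its higher values on treated arrays at 6 h, 10.90, 10.20 and 10.80 against 10.13, 9.77 and 10.05 with vehicle. The groups did not overlap, the second treated array lying just above the highest vehicle array, and the difference of 0.65 (SE 0.18, 95% interval 0.27 to 1.04) did not pass the test (adjusted p = 0.223 in limma). A second Gadd45b probe set had 10.46, 10.28 and 10.41 on treated and 9.62, 9.56 and 9.86 on vehicle arrays at 6 h. By that probe set Gadd45b rose by 0.70 at 6 h (SE 0.11, adjusted p = 0.00531). At 48 h the chosen probe set gave 10.24, 10.63 and 10.44 with vehicle and 10.32, 10.05, 10.49 and 10.30 with 1,25D. These groups overlapped, with differences of -0.15 (SE 0.17, 95% interval -0.51 to 0.21) for the chosen probe set and -0.06 (SE 0.10) for the second. The dimmest Gadd45b probe set differed by 0.01 at 6 h and 0.18 at 48 h, with adjusted p of 0.997 and 1 in limma.

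Gadd45g, whose product also binds Cdk1, had 8.25, 7.80 and 7.78 with vehicle and 7.27, 6.93 and 7.26 with 1,25D at 6 h. All treated arrays were below all vehicle arrays, yet the difference of -0.79 (SE 0.18, 95% interval -1.17 to -0.40) had an adjusted p of 0.0871 in limma and was not called. At 48 h the signals were 7.72, 8.30 and 7.87 with vehicle and 7.93, 7.80, 7.92 and 8.07 with 1,25D. The treated values lay inside the range of the vehicle values, with a difference of -0.03 (SE 0.17, 95% interval -0.39 to 0.33), whose sign turned under quantile normalization (0.03).

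Plk2 was the gene whose response turned between the times. Its kinase is induced by serum and by p53 and takes part in centriole duplication. At 6 h Plk2 had 11.27, 11.24 and 11.52 with vehicle and 10.67, 10.69 and 10.86 with 1,25D. No treated array reached the vehicle range, and Plk2 fell to 0.659 of the vehicle level, a log2 difference of -0.60 (SE 0.10, 95% interval -0.81 to -0.39, adjusted p = 0.00713 in limma). At 48 h Plk2 had 10.48, 10.55 and 10.56 with vehicle and 10.91, 11.07, 10.84 and 10.93 with 1,25D. The groups were again apart, now with treated arrays above, and Plk2 rose 1.33-fold (log2 difference 0.41, SE 0.09, 95% interval 0.22 to 0.60, adjusted p = 0.0406 in limma).

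The response of Plk2 at 48 h exceeded that at 6 h by 1.01 on the log2 scale (SE 0.13, 95% interval 0.73 to 1.29, adjusted p = 0.0026 in limma). The group means behind it were 11.34 ± 0.154 (SD, n = 3) with vehicle and 10.74 ± 0.102 (SD, n = 3) with 1,25D at 6 h, and 10.53 ± 0.044 (SD, n = 3) and 10.94 ± 0.0972 (SD, n = 4) at 48 h. The vehicle mean fell by 0.81 between the times, while the treated means at 6 h and 48 h lay between both vehicle means. Plk2 was the 1 of 10 genes called higher in this test of the difference between times, and 0 of 10 were called lower, where 0.346% and 0.286% of all named genes were called. Gadd45b (-0.80, SE 0.24, adjusted p = 0.415), Gadd45g (0.76, SE 0.24, adjusted p = 0.488), Gadd45a (0.72, SE 0.33, adjusted p = 0.877) and Trp53inp1 (-0.76, SE 0.38, adjusted p = 0.931) had the next largest differences in limma and were not called. The second Gadd45b probe set, by contrast, was called in this test (-0.76, SE 0.15, adjusted p = 0.0459). A second Plk2 probe set, at the 31.2 percentile of mean signal, differed by -0.23 (SE 0.22) at 6 h and -0.09 (SE 0.21) at 48 h and was not called.

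Plk3, a stress-responsive relative of Plk2, spread widely on vehicle arrays at 6 h (SD 0.416, n = 3) and treated arrays at 48 h (SD 0.395, n = 4). The treated arrays at 6 h (SD 0.133, n = 3) and vehicle arrays at 48 h (SD 0.0612, n = 3) were closer together. It had 7.09, 7.51 and 7.92 with vehicle and 7.42, 7.19 and 7.42 with 1,25D at 6 h. At 48 h it had 6.96, 6.88 and 6.997 with vehicle and 7.26, 7.59, 7.12 and 6.64 with 1,25D. The groups overlapped at both times, with differences of -0.17 (SE 0.23, 95% interval -0.67 to 0.33) at 6 h and 0.21 (SE 0.22, 95% interval -0.26 to 0.68) at 48 h, and the sign at 6 h turned without vehicle 6 h replicate 3 (0.04).

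Phlda3, whose product competes with Akt for membrane lipids, was above vehicle at both times and was called at 48 h. At 6 h it had 10.21, 10.22 and 10.49 with vehicle and 10.98, 10.61 and 10.89 with 1,25D. The groups did not overlap, and the difference of 0.52 (SE 0.13, 95% interval 0.24 to 0.80) was not called (adjusted p = 0.149 in limma). At 48 h Phlda3 had 9.45, 9.73 and 9.82 with vehicle and 10.28, 10.07, 10.34 and 10.19 with 1,25D. Again all treated arrays were above all vehicle arrays, and Phlda3 rose 1.47-fold (log2 difference 0.55, SE 0.12, 95% interval 0.29 to 0.82, adjusted p = 0.0442 in limma). The response at 48 h minus that at 6 h was 0.03 (SE 0.18, 95% interval -0.36 to 0.42, adjusted p = 0.996).

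**Figure D2:**
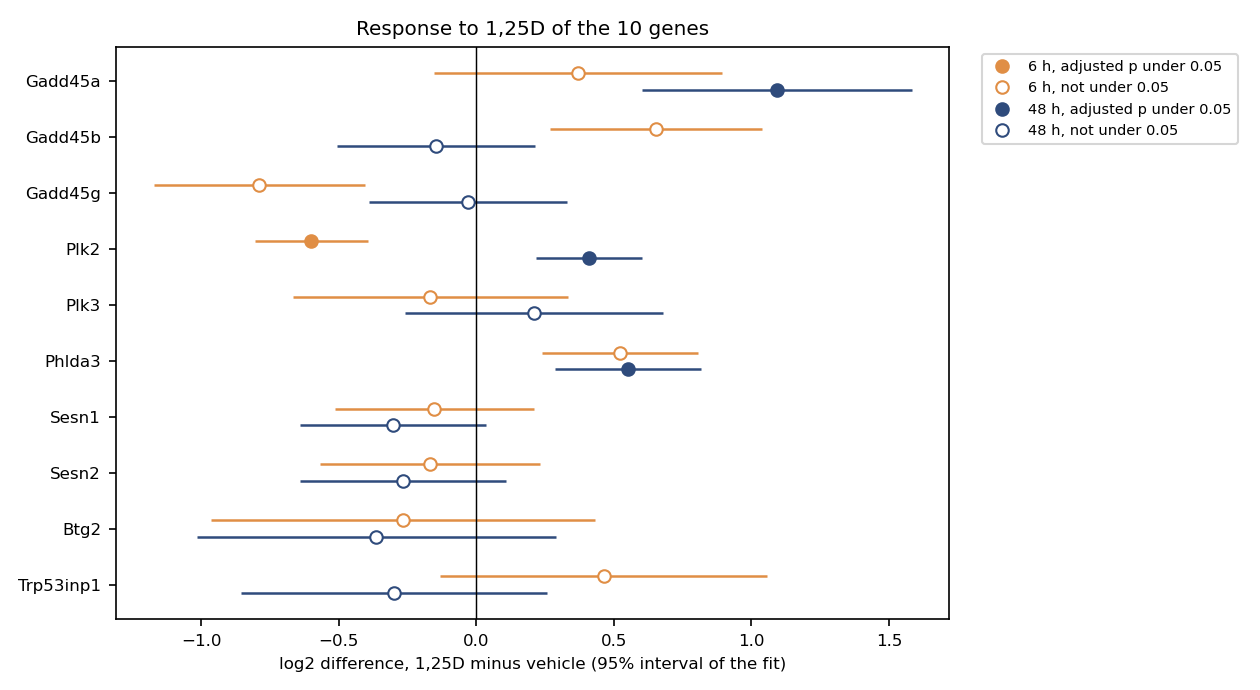
Log2 difference, 1,25D minus vehicle (horizontal axis), of the 10 genes at 6 h and 48 h, with the 95% interval of the limma fit as a line and a filled point where the adjusted p is under 0.05. Plk2 lies at -0.60 at 6 h and 0.41 at 48 h, whereas Phlda3 lies at 0.52 and 0.55.

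The sestrins, Btg2 and Trp53inp1 were not called at either time. Sesn1, a p53-induced sestrin, had 6.91, 7.09 and 7.38 with vehicle and 6.88, 7.19 and 6.85 with 1,25D at 6 h, and 7.78, 8.02 and 8.06 against 7.88, 7.71, 7.58 and 7.44 at 48 h. At 48 h 3 of 4 treated arrays were below all vehicle arrays, with a difference of -0.30 (SE 0.16, 95% interval -0.64 to 0.04, adjusted p = 0.842 in limma). Sesn2, the leucine-sensing sestrin and an Atf4 target, had 7.22, 7.53 and 7.20 against 6.72, 7.32 and 7.40 at 6 h, and 7.86, 7.78 and 7.86 against 7.60, 7.42, 7.82 and 7.41 at 48 h. Its groups overlapped at both times, with differences of -0.17 (SE 0.19) and -0.27 (SE 0.17, 95% interval -0.64 to 0.11). The sign at 6 h turned without 1,25D 6 h replicate 1 (0.04).

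Btg2, an antiproliferative p53 target, had 9.43, 8.77 and 9.07 with vehicle and 8.63, 8.27 and 9.58 with 1,25D at 6 h. At 48 h it had 9.50, 10.30 and 10.16 with vehicle and 9.86, 9.03, 9.78 and 9.82 with 1,25D. The second treated array at 48 h was low, and the groups overlapped at both times, with differences of -0.27 (SE 0.32) at 6 h and -0.36 (SE 0.30, 95% interval -1.02 to 0.29) at 48 h. The other Btg2 probe set had narrower groups at 48 h, 9.46, 9.54 and 9.60 with vehicle and 9.28, 8.99, 9.09 and 8.91 with 1,25D. There every treated array was below every vehicle array, but the difference of -0.46 (SE 0.17) was not called (adjusted p = 0.409 in limma), and at 6 h this probe set gave 0.03 (SE 0.18).

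Trp53inp1 had 7.53, 7.87 and 8.61 with vehicle and 8.27, 8.69 and 8.42 with 1,25D at 6 h, and 10.08, 9.79 and 9.90 against 9.94, 10.01, 9.53 and 9.01 at 48 h. The groups overlapped at both times. The differences were 0.46 (SE 0.28, 95% interval -0.13 to 1.06) at 6 h and -0.30 (SE 0.26, 95% interval -0.86 to 0.25) at 48 h, with adjusted p of 0.961 and 1 in limma.

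Over the 10 genes, 4 (Gadd45b, Gadd45g, Plk2 and Phlda3) had vehicle and treated arrays that did not overlap at 6 h, where 10.2% of all named genes had none, and 3 (Gadd45a, Plk2 and Phlda3) at 48 h, where 12.6% had none. The call of Plk2 at 6 h was lost without 1,25D 6 h replicate 1 (adjusted p = 0.0543 in limma) and when only the groups at 6 h were fitted (adjusted p = 0.145), while Gadd45b gained a call without 1,25D 6 h replicate 2 (0.87, adjusted p = 0.0256). At 48 h Gadd45a lost its call (adjusted p 0.0528 to 0.188 in limma) without any one of 1,25D 6 h replicate 1, vehicle 48 h replicates 1 and 2, and 1,25D 48 h replicates 1 and 3. Plk2 lost it (0.052 to 0.202) without any one of 1,25D 6 h replicates 1 and 2 and each array at 48 h. Phlda3 lost it (0.0539 to 0.269) without any one of vehicle 6 h replicate 2, 1,25D 6 h replicates 1 and 3, each vehicle array at 48 h, and 1,25D 48 h replicates 1, 3 and 4. Without the 2 arrays that stand apart, Gadd45a was called at 48 h (1.14, adjusted p = 0.0254 in limma), and Plk2 (0.41, adjusted p = 0.0669) and Phlda3 (0.56, adjusted p = 0.0542) were not. The difference of Plk2 between times was called without each array in turn (adjusted p 0.00451 to 0.0131 in limma).

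**Figure D3:**
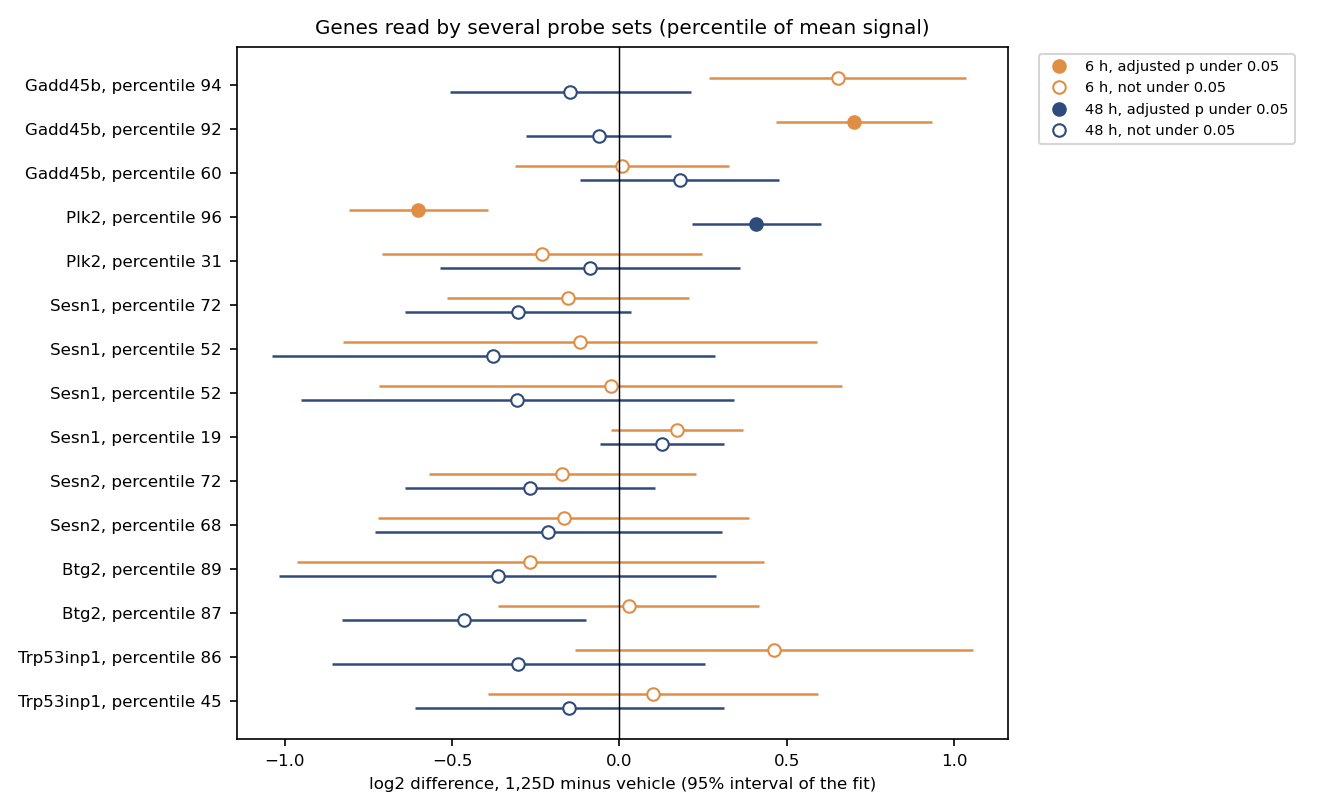
Log2 difference, 1,25D minus vehicle (horizontal axis), at 6 h and 48 h for each probe set of the 6 genes with more than 1, named by the percentile of its mean signal. Lines are 95% intervals of the limma fit and filled points have an adjusted p under 0.05; both bright Gadd45b probe sets lie at 0.65 and 0.70 at 6 h, and the dim Plk2 probe set has neither call.

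Between 6 h and 48 h in vehicle the p53 partner Trp53inp1, Gadd45a and Sesn1 rose, and Plk2 and Phlda3 fell. In all, 3 of the 10 rose and 2 fell, against 9.84% and 8.75% of all named genes, and 9 had groups that did not overlap, against 31%. Trp53inp1 rose 3.80-fold (log2 difference 1.92, SE 0.28, adjusted p = 0.00032 in limma), Gadd45a 2.05-fold (1.04, SE 0.24, adjusted p = 0.0112) and Sesn1 1.78-fold (0.83, SE 0.17, adjusted p = 0.00419). Plk2 fell by 0.81 (SE 0.10, adjusted p = 6.72e-05) and Phlda3 fell by 0.64 (SE 0.13, adjusted p = 0.00468). The remaining values were 0.90 (SE 0.32, adjusted p = 0.102) for Btg2, 0.51 (SE 0.19, adjusted p = 0.101) for Sesn2, 0.46 (SE 0.18, adjusted p = 0.136) for Gadd45b, -0.56 (SE 0.23, adjusted p = 0.163) for Plk3 and 0.02 (SE 0.18, adjusted p = 0.982) for Gadd45g. The median of the 10 was 0.49, against -0.03 over all named genes. Markers of cell types moved in the same comparison: 5 of 8 luminal markers rose, Krt19 (2.02) and Cldn4 (1.78) among them, and their mean signal ranged over 8.73 to 8.81 on the arrays at 6 h and 9.63 to 9.68 on those at 48 h. Of 8 basal markers 3 rose, Krt15 (1.69), Trp63 (1.14) and Dst (0.60), and Cd44 fell (-0.45), and of 9 immune markers Cd68 rose (1.02). Their part in the changes of the 10 genes was not tested.

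Set beside the hormone's effect at 48 h, Gadd45a was higher both with time in vehicle (1.04) and with 1,25D (1.09), whereas Plk2 and Phlda3 were lower with time (-0.81 and -0.64) and higher with 1,25D (0.41 and 0.55). These comparisons share the vehicle arrays at 48 h, so their signs are not independent. Time in culture and any day of processing cannot be told apart. Gadd45a was not called over time without vehicle 48 h replicate 2 (0.97, adjusted p = 0.0512 in limma) or replicate 3 (0.87, adjusted p = 0.0623). Plk3 was called without vehicle 6 h replicate 1 (-0.77, adjusted p = 0.0416), without both arrays that stand apart (-0.77, adjusted p = 0.00585) and under quantile normalization (-0.61, adjusted p = 0.0427). Sesn2 was called without 1,25D 6 h replicate 1 (0.51, adjusted p = 0.047), and Btg2 without 1,25D 6 h replicate 3 (0.90, adjusted p = 0.0453). A second Trp53inp1 probe set gave 0.60 (adjusted p = 0.127) and a second Sesn1 probe set 0.89 (adjusted p = 0.111), while another Sesn1 probe set rose by 1.30 (adjusted p = 0.0157) and the second Btg2 probe set by 0.60 (adjusted p = 0.0469). The chosen Sesn1 probe set, the one that rose by 1.30 and the second Gadd45b probe set are of a kind that can match several transcripts.

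Genes of related function were counted from lists taken with earlier results known. Of 34 measured genes listed as p53 targets, 1 rose and 0 fell with 1,25D at each time. Among all named genes 0.687% rose and 0.165% fell at 6 h, and 1.43% and 0.951% at 48 h. Ccng2, an atypical cyclin linked to arrest, rose by 1.73 at 6 h (SE 0.23, adjusted p = 0.00141 in limma). Whether p53 controls Ccng2 in these cells was not tested, and its relative Ccng1 was not called (0.06, SE 0.18 at 6 h). Aen, an apoptotic nuclease, rose by 0.55 at 48 h (SE 0.09, adjusted p = 0.00706). Cdkn1a, the inhibitor p21, was not called, with 0.07 (SE 0.11) at 6 h and 0.02 (SE 0.11) at 48 h. Neither was Mdm2, the negative regulator of p53, with 0.22 (SE 0.12) and -0.11 (SE 0.11). Other targets differed more without being called. Among them were Pmaip1, with 0.53 (SE 0.22) at 6 h and 0.80 (SE 0.21) at 48 h, and Fas, with -0.75 (SE 0.17) and 0.10 (SE 0.16). None of the 10 genes described here is on this list. The medians of this list were 0.05 and 0.03. Without adjustment 6 of the 34 had p under 0.05 at each time in limma, against 7.01% of all named genes at 6 h and 10.3% at 48 h. In vehicle over time 6 of these 34 rose and 6 fell, against 9.84% and 8.75% of all named genes. The shares given here apply also to the counts of the lists below, with 1,25D and over time.

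Among 27 relatives of the 10 genes and other growth arrest genes, 0 were called at 6 h in limma and 1 at 48 h. That gene, Ndrg1, a hypoxia-induced growth suppressor, fell by 0.56 (SE 0.10, adjusted p = 0.00912). Without adjustment 6 of the 27 had p under 0.05 at 6 h and 7 at 48 h, against 7.01% and 10.3% of all named genes. The largest differences on this list, neither of them called, were those of Ddit4 at 6 h (1.30, SE 0.33, adjusted p = 0.155 in limma) and Gas1 at 48 h (-0.79, SE 0.24, adjusted p = 0.212). Paralogs of the 10 genes were not called with 1,25D. Sesn3 had -0.58 (SE 0.22) at 6 h and 0.03 (SE 0.21) at 48 h, Phlda2 0.17 (SE 0.14) and 0.46 (SE 0.13, adjusted p = 0.152), and Btg1 0.00 (SE 0.13) and 0.04 (SE 0.12). Over time in vehicle 8 of the 27 rose and 4 fell. Ddit4 (2.56), Ndrg1 (2.02) and Gas1 (1.99) rose most. Also called were Trp53inp2, the relative of Trp53inp1 (1.55), Btg1 (0.74) and Phlda2 (-1.59).

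Of 24 binding partners and effectors of Gadd45 and sestrin proteins, 0 were called at 6 h and 0 at 48 h in limma. Without adjustment 7 had p under 0.05 at 6 h and 2 at 48 h, against 7.01% and 10.3% of all named genes. Map2k3, a kinase upstream of p38, had -0.45 (SE 0.13, adjusted p = 0.338) at 6 h. Map2k3 fell by 1.19 in vehicle over time, when 1 of 24 rose, the autophagy receptor gene Sqstm1 (0.48), and 5 fell, Cdk1 (-0.84) and Pcna (-0.44) among them.

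Immediate early genes, the class to which Plk2, Btg2 and Plk3 also belong as serum-induced genes, moved in both directions. At 6 h 1 of 28 rose and 3 fell, against 0.687% and 0.165% of all named genes. Fos rose by 0.57 (SE 0.10, adjusted p = 0.0146 in limma), and Egr1 (-2.09, SE 0.18, adjusted p = 4.06e-05), Myc (-0.60, SE 0.10, adjusted p = 0.0124) and Ccn1 (-0.50, SE 0.09, adjusted p = 0.0155) fell. At 48 h 3 rose and 2 fell, against 1.43% and 0.951%, with Fos at 0.67, Dusp5 at 0.94, Klf4 at 0.54, Egr1 at -0.88 and Atf3 at -0.78. Without adjustment 11 of the 28 had p under 0.05 at 6 h and 12 at 48 h in limma, against 7.01% and 10.3% of all named genes. Myc, like Plk2, was called in the difference between times (0.82, SE 0.14, adjusted p = 0.0217), although at 48 h Myc itself was not called (0.22, SE 0.10, adjusted p = 0.633). Among 24 targets of Atf4, the stress factor that induces Sesn2, Nupr1 rose by 1.66 at 6 h and Slc7a11 by 1.52 at 48 h, and 22 were not called at either time. Without adjustment 7 of the 24 had p under 0.05 at 6 h and 3 at 48 h in limma, against the same shares.

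Proliferation genes moved with time in these cultures. Of 29 measured, 0 rose and 25 fell from 6 h to 48 h in vehicle, with a median of -0.84. With 1,25D, 0 were called at 6 h in limma (1 at an unadjusted p under 0.05), and at 48 h 1 rose and 3 fell, with a median of -0.25. Without adjustment 14 of the 29 had p under 0.05 at 48 h, against the 10.3% of all named genes given above. Ccnd1, the G1 cyclin, rose by 0.46 (SE 0.08, adjusted p = 0.00876 in limma). Ndc80 (-0.61, SE 0.12, adjusted p = 0.0246), Cdc20 (-0.44, SE 0.10, adjusted p = 0.0403) and Ccna2 (-0.39, SE 0.09, adjusted p = 0.0446) fell. The part of these changes in those of the 10 genes was not tested.

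**Figure D4:**
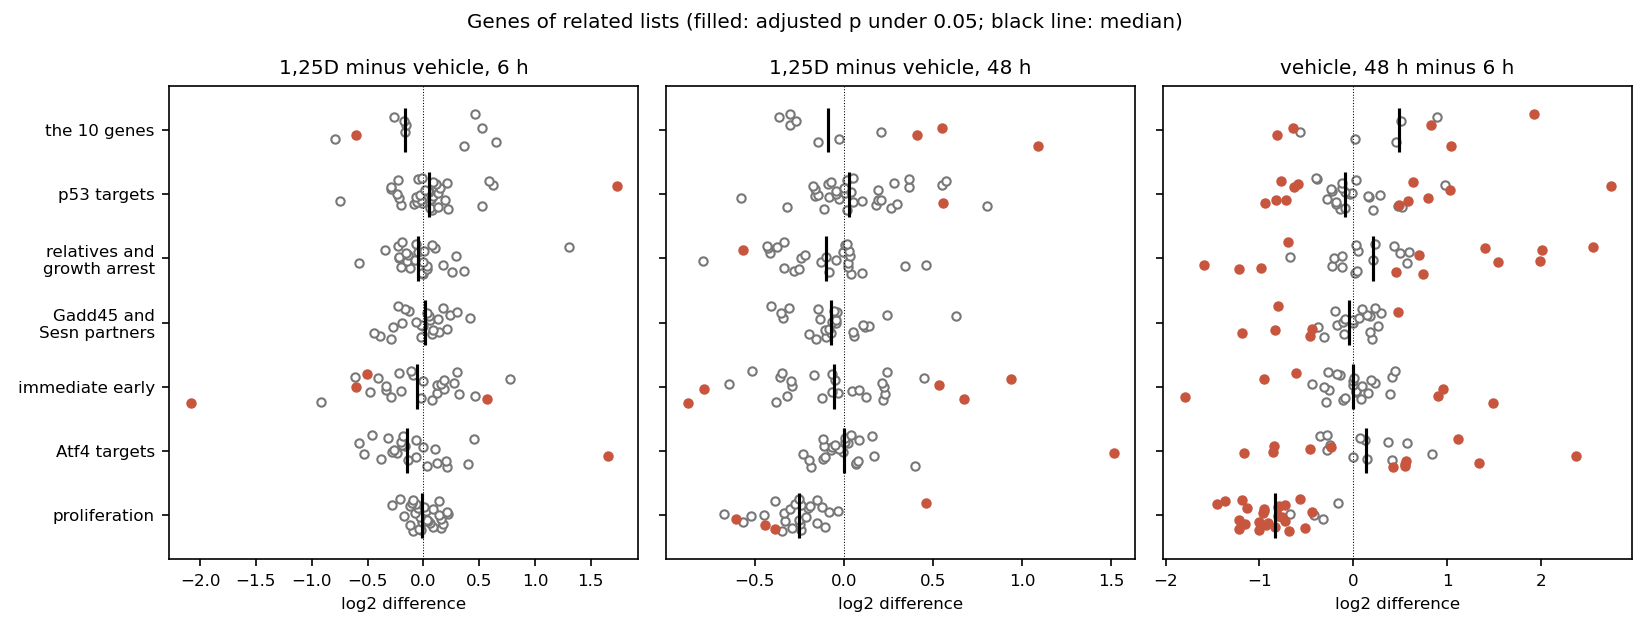
Log2 difference (horizontal axis, own scale for each panel) of the 10 genes and of the measured genes of 6 related lists (rows), for 1,25D minus vehicle at 6 h and 48 h and for vehicle at 48 h minus 6 h. Points are genes, filled where the adjusted p is under 0.05 in limma, and black lines are medians; the proliferation genes have a median of -0.84 over time in vehicle and -0.25 with 1,25D at 48 h.

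For the 3 genes called with 1,25D, the named genes most like them over the 13 arrays were found by the root mean square distance between log2 signals after each gene was centred on its own mean. Similar differences with 1,25D follow from this choice and are no separate evidence. Nearest to Gadd45a (SD 0.925 over the arrays) were Pon3 at 0.244, Blvrb at 0.262 and S100a8 at 0.289, which were called higher at 48 h (0.89, 0.65 and 0.88). Nearest to Plk2 (SD 0.314) were Oaf at 0.112, Hk2 at 0.147 and Fam83g at 0.153. These had differences of -0.61, -0.63 and -0.51 at 6 h and 0.28, 0.26 and 0.17 at 48 h, none of them called. Nearest to Phlda3 (SD 0.435) were Epha2 at 0.112, Traf1 at 0.136 and Uap1 at 0.157. Epha2, a receptor kinase gene that is also on the list of p53 targets, had 0.58 at 6 h and 0.57 at 48 h (adjusted p = 0.184 and 0.0859 in limma), beside 0.52 and 0.55 for Phlda3.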

How the data were processed

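RNA samples of cultured cells were hybridised to 13 Affymetrix arrays, 1 each. The deposited table holds the authors' values on a log2 scale, and the submitters' processing notes name MAS5 without version or role. Background correction, normalization and the array's genome build are not given in the sources used here. The design text names a smaller array than the 45101 probe sets of the table. After 64 control probe sets were removed, 45037 were tested; 34945 carried 1 gene symbol, 932 several and 9160 none, and none was named from several.

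Group means over all 13 arrays were fitted in limma 3.58.1 (R 4.3.3; eBayes with an intensity trend, two-sided), with Benjamini-Hochberg adjustment over all probe sets and a threshold of 0.05. The deposited log2 values were used without offset; the design had allowed for linear values with an offset. The scripts were tested on simulated data. Motifs were searched in Python 3.11.15, and figures drawn with matplotlib 3.10.9.

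The members, the lists and the tests were chosen with earlier results of these data known. Named are all 10 members, other probe sets whose call or sign differs or as a range, Cyp24a1, up to 4 called genes with the smallest p per list and time, and the 3 genes nearest to each called member; further genes were chosen after their values were seen. Of 232 list entries, 215 were measured. Alternatives were quantile normalization, median centring, no intensity trend, leaving out the dimmest 40% of probe sets, an offset of 16, fitting only the groups compared, the replicate block, the second probe set, dropping probe sets with the suffixes for shared transcripts, and dropping the 2 arrays that stand apart or each array in turn. The number of arrays limits the precision.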

Additional observations from a re-analysis of the deposited data

Results flagged for a closer look

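In the 4 arrays of 1,25D at 48 h, Btg2 had 1 array far from the others: replicate 2 read 9.03 against 9.78 to 9.86, a gap of 0.901 of the group's whole range, above the 95% critical value of Dixon's test. Such a gap also arises by chance in some groups. The response to 1,25D differed between times for Plk2, by 1.01 (SE 0.13, adjusted p = 0.0026 in limma), with treated arrays below vehicle at 6 h and above it at 48 h. It also differed for the second Gadd45b probe set, by -0.764 (SE 0.148, adjusted p = 0.0459 in limma), with 0.70 at 6 h and -0.06 at 48 h. The chosen Gadd45b probe set gave -0.80 (SE 0.24, adjusted p = 0.415) for the same difference.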

How the results depend on the processing

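Of the 10 genes, 1 was called at 6 h; 0 were when only the groups compared were fitted, and 0 to 2 when each array was left out in turn. The 3 called at 48 h became 1 with arrays centred on their medians, without the intensity trend, with the replicate block and without the 2 arrays that stand apart, and 0 to 3 when each array was left out. The gene left in these 4 settings was Gadd45a. With only the groups at 48 h fitted, 2 were called, and Phlda3 was not (adjusted p = 0.0691 in limma). The 5 called over time in vehicle became 3 with the second probe set of each gene. Turned signs were those of values not called, apart from Plk2 at 48 h: by its second, dim probe set Plk2 gave -0.0891. Btg2 at 6 h gave 0.0275 by its second probe set. Gadd45g gave 0.026 at 48 h and -0.0158 over time in vehicle under quantile normalization. With each array left out, the values at 6 h ran from -0.377 to 0.0395 for Plk3, -0.297 to 0.0441 for Sesn2 and -0.643 to 0.0132 for Btg2, and those of Gadd45g from -0.15 to 0.137 at 48 h and -0.149 to 0.169 over time in vehicle.

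Same-numbered arrays deviated from their group means with correlations of -0.523 to 0.405 over 6 pairs, and differently numbered ones with -0.48 to 0.63 over 15. At 6 h alone, same-numbered pairs had 0.273, 0.227 and 0.0224, and differently numbered ones -0.273 to 0.184. So few pairs cannot show whether a shared replicate number ties arrays together. The replicate block left 1 member called at 6 h (Plk2, adjusted p = 0.0252), 1 at 48 h and 1 for the difference between times (Plk2, adjusted p = 0.0133). Members with dim probe sets can have folds that are understated, since background makes up more of their signal.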
